A study of Mus musculus with 6 samples.

Results

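The transcriptomes of 6 libraries of mouse bone marrow mesenchymal stromal cells (MSCs) were divided by their level of cell division genes, and the programmes that went with this division were described. The division-high side held Ctl MSC 1, MSC-TPr 2 and MSC-TPr 3, and the division-low side held Ctl MSC 2, Ctl MSC 3 and MSC-TPr 1, so that all 6 libraries of the series entered, 3 on each side. The split therefore crossed the library labels, with 1 library labelled Ctl MSC beside 2 labelled MSC-TPr on the high side and the reverse on the low side. The sides were chosen by the counts of cell division genes such as Mki67, Top2a and Plk1 in these same libraries. All differences between the sides are given as descriptions without a test.

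The cells came from femurs of young female C57BL/6 mice and were cultured in AMEM with 10% FBS before RNA extraction. The libraries labelled MSC-TPr are from MSCs transduced with a retroviral AP2 construct coding for the immunoproteasome subunits β1i (Psmb9) and β2i (Psmb10) and the thymus-restricted subunit β5t (Psmb11), and those labelled Ctl MSC from MSCs given the empty AP2 vector. Both groups hold 3 libraries of transduced cells, and nothing in the labels says that the libraries of a group came from separate cultures or animals. A p-value between the labels thus measures the spread between these libraries, which may be technical. Polyadenylated RNA was sequenced from both ends, and 16158756 to 22158887 reads per library lay on genes (79.2% to 86.2% of the reads listed), so that 3 reads corresponded to 0.139 to 0.181 counts scaled to library size (CPM), a limit that covers counting error only. The shares of reads on no gene, on several places and on the ribosomal RNA gene Rn45s overlapped between the sides, the last at 0.395% to 1.61% on the high side and 0.353% to 0.881% on the low side. The transduced genes did not separate the labels, as the values given with the proteasome show, and group names are used here as library labels only.

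Cell division draws on a set of genes that are transcribed together, from DNA replication in S phase to the kinases, cyclins and spindle proteins of mitosis. Cultured MSCs divide while attached to plastic, deposit a collagenous matrix, carry contractile fibres and can be directed toward bone, cartilage and fat. Cholesterol synthesis is controlled by sterol-sensing transcription factors in the endoplasmic reticulum, and lysosomal genes by factors that respond to nutrient supply. These programmes are described in this order: division, matrix and contraction, lipid synthesis, nuclear genes and secreted factors on the high side, then lysosome, autophagy, protein folding and stress genes.

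Promoter sequences of genes at the centre of 3 of these programmes are shown first, because short letter motifs were unevenly spread over the gene lists. In the 250 bases before the start of each gene in RefSeq (GRCm38.p6, the same coordinates as mm10), CCAAT was found on either strand in 28 of the 37 cell division members with an entry and in 16 of 17 members of the list for cholesterol synthesis and uptake, against 37.5% of the 27025 genes with an entry and 41.4% of those tested here. TTTGAA was found in 14 of 37 cell division members against 18.3% of all genes and 12.6% of those tested. CACGTG was found in 12 of 32 lysosomal members (37.5%), against 6.86% of all genes and 10.1% of those tested. It was also found in 4 of 17 members of the list for cholesterol synthesis and uptake (23.5%) and in none of 15 collagens. A gene with several starts was counted when any of them held the motif, and 13 motifs were searched in all, as listed with the processing. A match describes letters and is neither a site nor a cause, and the choice of motifs followed from knowledge of these programmes. For each list the genes shown have the largest difference between the sides among members whose window holds the motifs and touches no annotated exon. In the first sequence the capitals mark CCAAT and TTTGAA, in both of the next CCAAT and in the last CACGTG, each on either strand.
Ccnb2: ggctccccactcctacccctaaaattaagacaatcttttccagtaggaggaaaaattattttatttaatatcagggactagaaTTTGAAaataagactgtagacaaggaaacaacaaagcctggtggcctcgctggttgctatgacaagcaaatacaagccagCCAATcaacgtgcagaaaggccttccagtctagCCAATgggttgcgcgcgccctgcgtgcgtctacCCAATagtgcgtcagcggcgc
Pmvk: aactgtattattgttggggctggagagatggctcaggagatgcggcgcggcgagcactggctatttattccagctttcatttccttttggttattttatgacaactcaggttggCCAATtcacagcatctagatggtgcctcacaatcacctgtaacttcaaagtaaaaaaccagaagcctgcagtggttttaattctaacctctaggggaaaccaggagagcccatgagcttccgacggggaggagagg
Hmgcs1: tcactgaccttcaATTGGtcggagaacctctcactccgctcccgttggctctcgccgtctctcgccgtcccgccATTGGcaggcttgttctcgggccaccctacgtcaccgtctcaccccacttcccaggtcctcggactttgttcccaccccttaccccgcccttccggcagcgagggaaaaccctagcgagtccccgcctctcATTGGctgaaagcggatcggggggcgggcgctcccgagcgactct
Lamp1: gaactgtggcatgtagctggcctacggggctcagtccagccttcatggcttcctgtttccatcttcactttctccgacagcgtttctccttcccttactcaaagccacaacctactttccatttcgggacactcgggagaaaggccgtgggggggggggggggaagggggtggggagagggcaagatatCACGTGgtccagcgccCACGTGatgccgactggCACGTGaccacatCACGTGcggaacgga
Ccnb2, a mitotic cyclin, has its window at chr9:70421555-70421804 on the minus strand and held 4 matches. Pmvk, phosphomevalonate kinase, at chr3:89454291-89454540 on the plus strand held 1, and Hmgcs1, which feeds the mevalonate pathway, at chr13:119690101-119690350 on the plus strand held 3. Lamp1, a main protein of the lysosomal membrane, at chr8:13158911-13159160 on the plus strand held 4. The only other lysosomal window that met these conditions, that of Lgmn, held 1 match, and Lgmn itself differed by 0.073 between the sides with overlap.

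Values that follow are TMM-scaled CPM, listed for the division-high libraries as Ctl MSC 1, MSC-TPr 2 and MSC-TPr 3 and for the division-low libraries as Ctl MSC 2, Ctl MSC 3 and MSC-TPr 1. Mki67 (chr7:135689784-135716361 in mm10), a nuclear protein of cycling cells, stood at 218, 195 and 293 CPM against 18.6, 16.5 and 13.7 CPM. Top2a (chr11:98992943-99024189), the topoisomerase that untangles replicated DNA, stood at 488, 398 and 395 CPM against 48.3, 45.6 and 40.1 CPM, and Plk1 (chr7:122159439-122169873), a kinase of mitosis, at 66.8, 57.3 and 57.4 CPM against 4.38, 4.36 and 6.75 CPM. Just inside the split, the lowest high library for Mki67 was MSC-TPr 2 and, just outside it, the highest low library was Ctl MSC 2. Over the 44 genes of the cell division list the mean log2 CPM was 6.32, 6.25 and 6.29 on the high side and 3.35, 3.32 and 3.43 on the low side, so that no library lay between the sides. These genes chose the members and are given only as the description of the rule.

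**Figure D1:**
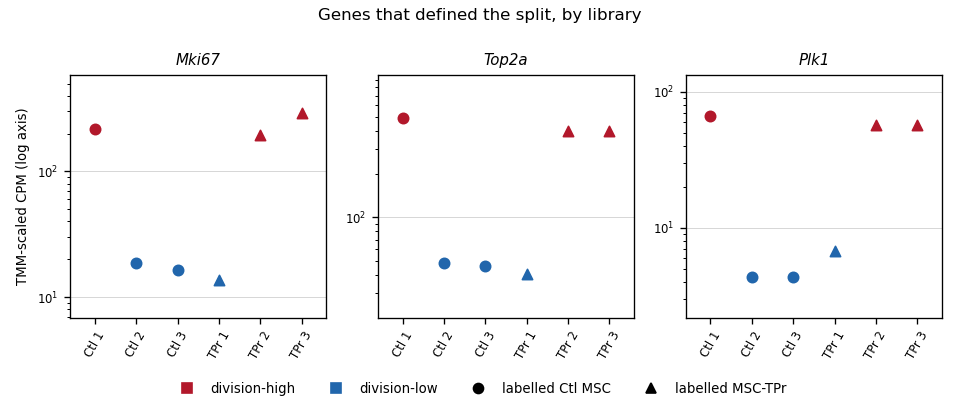
TMM-scaled CPM on a log axis of Mki67, Top2a and Plk1 in each of the 6 libraries, with colour for the side of the split and point shape for the library label. Ctl MSC 1 sits with MSC-TPr 2 and 3, and MSC-TPr 1 sits with Ctl MSC 2 and 3, for each gene.

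To hold the label constant, each gene was given a difference within each label in log2 CPM: Ctl MSC 1 minus the mean of Ctl MSC 2 and 3, and the mean of MSC-TPr 2 and 3 minus MSC-TPr 1. The mean of both is the split difference. Of 23420 genes in the table, 16807 had at least 1 read and 11974 passed edgeR's filterByExpr. All division-high libraries lay above all division-low libraries for 2758 of these (23%), and below for 2596 (21.7%). Within both labels, 910 genes were at least 2-fold higher on the high side (7.6%) and 437 at least 2-fold lower (3.65%), and 286 of the former and 52 of the latter were at least 4-fold apart. Across the 11974 genes, which are not independent replicates, the 2 within-label differences share no library and had a correlation of 0.765, or 0.752 over 11885 genes without the cell division and DNA replication lists. The rule set the direction of both differences from counts of these libraries, so a positive correlation was favoured in advance. It is given as a description, and other genes used in S phase remained among the 11885. The median size of the split difference was 0.41, compared with 0.089 between Ctl MSC 2 and 3 and 0.25 between MSC-TPr 2 and 3, and 62.1% of genes had a larger difference between the sides than between the labels within a side, whose median size was 0.27. The first principal component (58.5% of the variance) separated the sides. The second (28.3%) separated the labels, at -48.9, -20.4 and -19.6 in Ctl MSC 1 to 3 and 49.1, 24.2 and 15.6 in MSC-TPr 1 to 3.

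**Figure D2:**
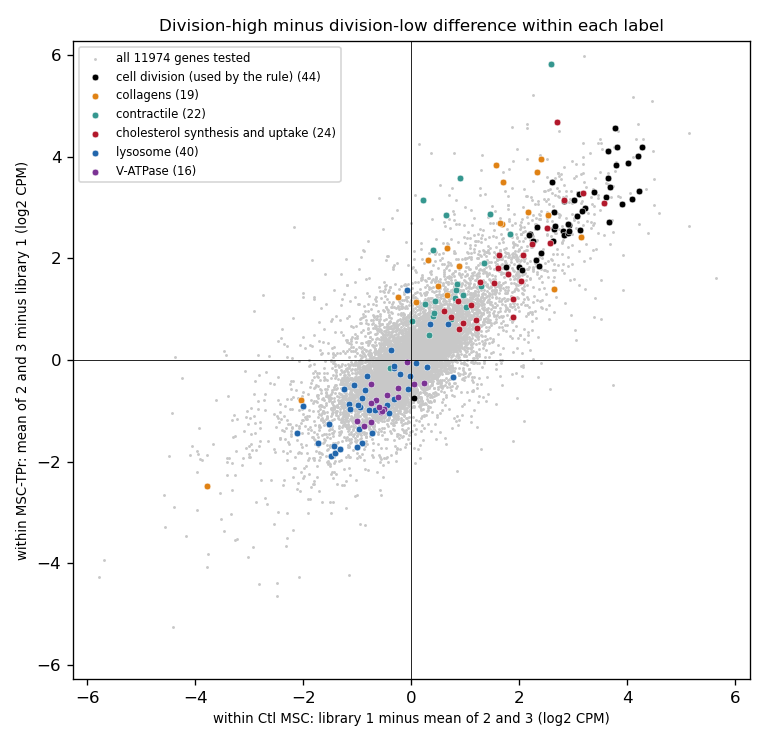
Each point is 1 of the 11974 genes tested, with its division-high minus division-low difference in log2 CPM within Ctl MSC on the x axis and within MSC-TPr on the y axis, and members of 6 gene lists in colour. Collagen, contractile and cholesterol genes lie mostly in the upper right with the cell division genes that the rule used, and lysosomal and V-ATPase genes mostly in the lower left.

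The markers of the labelled cell type were compared first. Cd44, the hyaluronan receptor used to define MSCs, stood at 536, 519 and 532 CPM against 144, 142 and 205 CPM, without overlap, and Eng (CD105) at 142, 179 and 204 CPM against 158, 159 and 159 CPM. Nt5e (CD73) followed the label more than the side, at 11.4, 4.20 and 5.24 CPM against 20.2, 17.4 and 2.66 CPM. Thy1 (CD90) had 1 read in Ctl MSC 1 and none elsewhere, so that this marker was at or near 0 in all libraries. Ptprc (CD45) had at most 2 reads and Pecam1 (CD31) at most 4 in any library. Of 17 tested members of the MSC surface and identity list, 9 were higher on the high side without overlap and 0 lower, with a median split difference of 1.01 (1.15 within Ctl MSC and 0.95 within MSC-TPr), and their 19 listed members summed to 3204 to 4296 CPM on the high side and 1870 to 2540 CPM on the low side. Ly6a (Sca-1) stood at 630.2, 251 and 285 CPM against 204, 210.5 and 138 CPM, and Cd9, a tetraspanin, at 451, 414 and 409 CPM against 122, 130.4 and 144 CPM.

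Markers of other cells were low on both sides. The 18 haematopoietic markers, of which 3 passed the filter and 6 had no read in any library, summed to 13.0 to 15.8 CPM on the high side and 11.5 to 17.7 CPM on the low side. Cd68, a lysosomal protein of macrophages that other cells can also express, was lower on the high side, at 1.63, 1.66 and 0.788 CPM against 9.66, 7.39 and 14.2 CPM. Cd14, a receptor for bacterial lipopolysaccharide, went the other way, at 11.65, 13.2 and 11.03 CPM against 3.36, 3.53 and 3.27 CPM, so that the sum hides opposite differences. Csf1r, a receptor of macrophages, had 12, 13 and 18 reads against 1, 1 and 0, and its exons overlap a gene on the other strand. The 14 endothelial markers, with 3 passing and 4 at 0 throughout, summed to 3.26 to 5.26 CPM against 7.39 to 26.1 CPM, of which Vwf made up 21.4 CPM in MSC-TPr 1, and the 17 epithelial, neural and muscle markers, with 3 passing and 2 at 0, to 14.6 to 19.8 CPM against 6.70 to 10.3 CPM. These sums moved with the sides for the last 2 lists, and their part in the differences reported here was not tested. In bulk RNA, fewer cells of a type and less RNA per cell cannot be told apart.

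Collagen genes were mostly higher on the division-high side. Of 19 members tested, 16 were higher on the division-high side without overlap and 2 lower, with a median of 2.02 (1.56 within Ctl MSC and 2.20 within MSC-TPr), against a median of -0.003 over all genes. Without a filter on low counts the median over the collagens was 1.42. Col1a1 (chr11:94936224-94953042), which encodes the main chain of type I collagen, stood at 3250.2, 3052 and 6916 CPM against 660.03, 639 and 354 CPM, a difference of 2.32 within Ctl MSC and 3.70 within MSC-TPr. Col3a1 (chr1:45311538-45349706), the type III chain of soft tissues, stood at 863, 649 and 1740.1 CPM against 97.2, 99.1 and 197 CPM, and Col12a1 (chr9:79598991-79718831), a collagen on the surface of fibrils, at 826, 422 and 1283 CPM against 163, 149 and 47.3 CPM. MSC-TPr 1 was the lowest library for Col1a1 and Col12a1, and MSC-TPr 3 the highest for all 3. Col5a3, a chain of type V collagen, reached 34.4, 84.5 and 124 CPM against 12.3, 10.9 and 7.09 CPM. The members that went the other way were Col14a1, with 0 to 0.232 CPM on the high side and 1.21 to 1.60 CPM on the low side, and Col18a1, a basement membrane collagen, at 7.61, 6.86 and 9.83 CPM against 32.1, 31.4 and 14.3 CPM.

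Enzymes that modify and crosslink collagen were also higher. Of 23 tested, 16 were higher without overlap and 0 lower, with a median of 0.64 (0.41 within Ctl MSC and 1.14 within MSC-TPr). The larger value within MSC-TPr rests on MSC-TPr 1 as its only low library. Relative to each gene's mean, the list median was -0.72 in MSC-TPr 1, against -0.25 in Ctl MSC 2 and -0.19 in Ctl MSC 3. It was 0.29, 0.33 and 0.53 in the division-high libraries. Lox (chr18:52516067-52529867), which oxidises lysines so that collagen and elastin can crosslink, stood at 3059, 1476 and 2015 CPM against 334, 331 and 153 CPM, and its relative Loxl2 at 58.7, 162 and 252 CPM against 8.97, 8.55 and 8.75 CPM. Loxl3, whose exons share 535 bases with Htra2 on the other strand, stood at 135, 82.3 and 111 CPM against 32.7, 33.2 and 17.1 CPM. P4ha3, a subunit of prolyl 4-hydroxylase, was 3.05 within Ctl MSC and 3.62 within MSC-TPr apart. Lox, Loxl2 and Loxl3 were each at least 4-fold higher within both labels. Loxl1 and Loxl4, of the same family and list, were not selected by the naming rule and are not described here.

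Of 30 matrix glycoproteins and proteoglycans tested, 16 were higher without overlap and 1, Nid1, lower, with a median of 1.34 (1.20 within Ctl MSC and 1.41 within MSC-TPr). Postn (chr3:54361109-54391037), the matricellular protein periostin, stood at 538, 258 and 409 CPM against 114, 114 and 8.69 CPM, and MSC-TPr 1 was far below the other low libraries. Aspn, a small proteoglycan that binds collagen, was at 285, 22.4 and 40.2 CPM against 16.9, 17.4 and 2.99 CPM, high in Ctl MSC 1 beyond all others. Ctgf stood at 604, 1750.1 and 1647 CPM against 137, 139 and 71.6 CPM and Thbs1 (thrombospondin 1) at 1899.8, 675 and 1762 CPM against 351, 319 and 90.2 CPM. Fn1, the fibronectin gene, did not follow the collagens and stood at 2465, 3863 and 6178 CPM against 8960.3, 8204 and 5148 CPM, with overlap between the sides. Tnc, Fmod and Mfap5 were 2.67, 2.94 and 2.29 higher in log2 CPM.

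Contractile genes were mostly higher on the division-high side, with 16 of the 22 members tested higher and 1 lower without overlap. Their median difference was 1.11 (0.77 within Ctl MSC and 1.33 within MSC-TPr). Tagln (chr9:45929619-45936058), an actin-binding protein of smooth muscle whose exons share 108 bases with Pcsk7 on the other strand, stood at 86.04, 169 and 134 CPM against 42.6, 49.97 and 12.4 CPM. Acta2, smooth muscle actin, stood at 567, 978 and 1056 CPM against 471, 512 and 115 CPM, with Ctl MSC 1 just above Ctl MSC 3, and the difference was 0.21 within Ctl MSC and 3.14 within MSC-TPr. Cnn1 (calponin) was at 29.5, 42.5 and 51.7 CPM against 4.38, 5.41 and 0.720 CPM, Tpm2 (a tropomyosin) at 214, 223 and 221 CPM against 58.00, 62.7 and 39.5 CPM and Myl9 (a myosin light chain) at 78.5, 127 and 131 CPM against 50.8, 49.9 and 17.9 CPM. In this list MSC-TPr 1 was the lowest library for each of these 5 genes. Cald1 was the member lower on the high side, at -0.28.

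Genes that turn over the matrix held members higher and members lower on the division-high side. Plau and Plat, which activate plasminogen, stood at 87.2, 45.8 and 47.9 CPM against 7.21, 7.67 and 2.55 CPM and 45.1, 42.6 and 50.7 CPM against 3.69, 3.14 and 4.37 CPM. Mmp11, a matrix metalloproteinase whose exons share 155 bases with Chchd10, was lower on the division-high side, at 39.8, 32.7 and 36.6 CPM against 149, 147 and 164 CPM. Of 25 genes of proteases and their inhibitors tested, 10 were higher (40%, against 23% of all genes) and 3 lower (12%, against 21.7%) without overlap. Their median was 0.41. Integrins and laminins had 6 of 21 higher (28.6%, against 23% of all genes) and 3 lower (14.3%, against 21.7%), and a median of -0.035. Itga11, a collagen-binding integrin, stood at 41.3, 8.64 and 18.6 CPM against 8.49, 8.55 and 2.49 CPM, and Itga5, of the fibronectin receptor, at 215, 378 and 496 CPM against 153, 146 and 149.6 CPM, whereas Lamb2 was lower at 109, 83.1 and 131 CPM against 297, 287 and 201 CPM.

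Cholesterol genes were higher on the division-high side as a whole list. All 24 members tested lay above in each high library compared with each low library, against 23% of all genes, with a median of 1.62 (1.70 within Ctl MSC and 1.54 within MSC-TPr). Idi1 (chr13:8885501-8892451), an isomerase of the isoprenoid pathway, was at 129.96, 116 and 115 CPM against 10.9, 10.8 and 13.5 CPM, 3.57 within Ctl MSC and 3.09 within MSC-TPr apart. Stard4, a sterol carrier, stood at 47.8, 36.4 and 44.2 CPM against 5.02, 5.30 and 4.04 CPM. Hmgcs1, whose promoter is shown here, reached 163, 104 and 129.7 CPM against 40.6, 39.4 and 39.7 CPM. Pmvk stood at 16.7, 14.6 and 14.2 CPM against 3.20, 3.75 and 2.88 CPM. Srebf2, which encodes the transcription factor of the pathway, differed less, at 186, 144 and 189 CPM against 102, 102 and 73.9 CPM. Outside this list, the fatty acid desaturase genes Scd2 and Scd1 stood at 1479, 1125 and 1683 CPM against 419, 394 and 219.6 CPM and 329, 272 and 374 CPM against 182, 175 and 159 CPM.

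**Figure D3:**
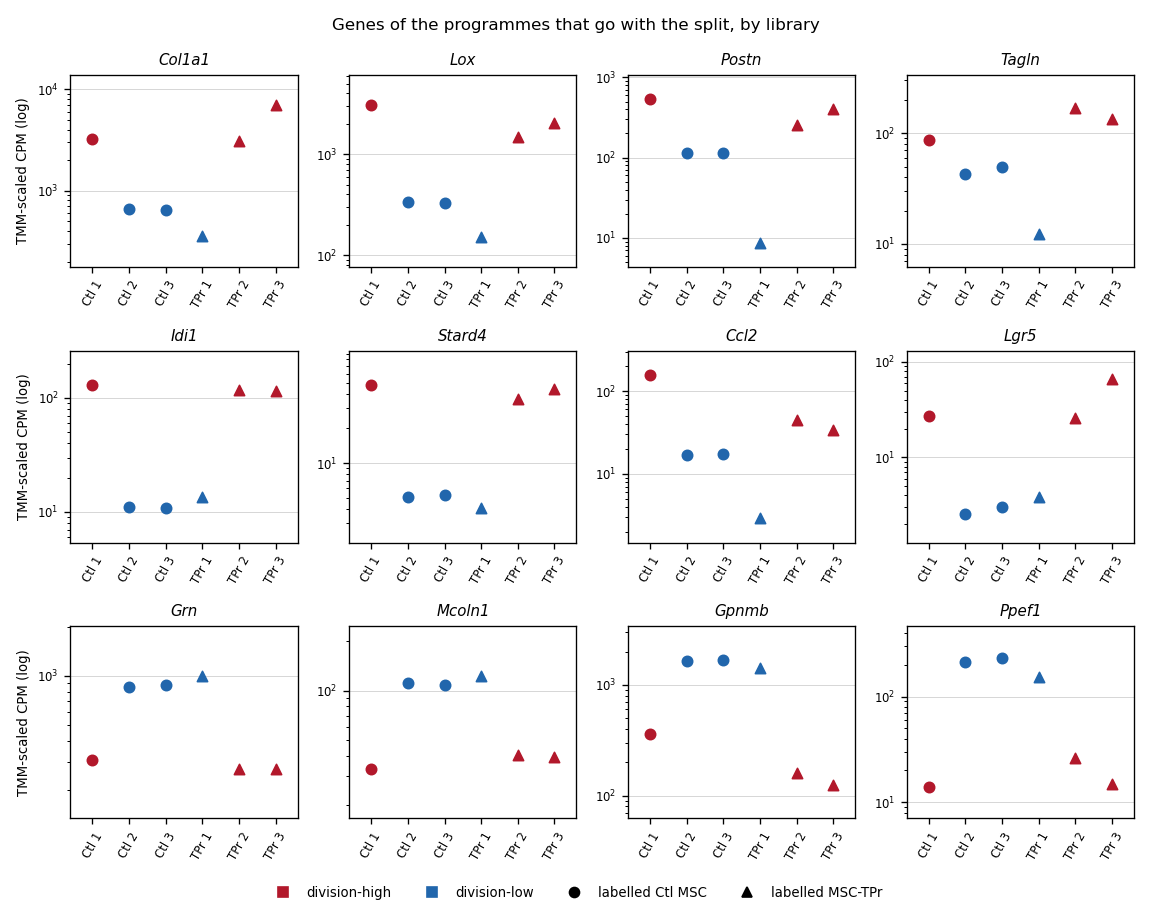
TMM-scaled CPM on log axes of 12 genes in each of the 6 libraries, with colour for the side of the split and shape for the label. The top 8 genes (matrix, contraction, cholesterol and secreted or Wnt genes) are higher in all 3 division-high libraries, and Grn, Mcoln1, Gpnmb and Ppef1 are lower in them.

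Nuclear genes outside the rule's lists were also higher. Of 30 chromatin genes, 22 were higher and 1 (Suz12) lower without overlap, with a median of 1.09 (1.13 within Ctl MSC and 1.03 within MSC-TPr). Hmgb2, a chromatin protein, stood at 169, 173 and 146 CPM against 37.01, 38.2 and 24.3 CPM, Hells, a helicase needed for DNA methylation, at 103, 134 and 99.96 CPM against 27.6, 28.2 and 26.96 CPM and Lmnb1 (lamin B1) at 75.1, 48.8 and 62.3 CPM against 20.7, 19.9 and 16.1 CPM. Many of these genes are themselves used in S phase, so that they are close to the rule. Splicing factors of the SR and hnRNP families had 23 of 32 higher and 0 lower, with a smaller median of 0.49 (0.51 within Ctl MSC and 0.45 within MSC-TPr). Srsf1 stood at 482, 621 and 460.2 CPM against 229, 207 and 168 CPM and Hnrnph1 at 325, 346 and 269 CPM against 168, 143 and 115 CPM. Nuclear pore and import genes had 20 of 29 higher and 1 lower (median 0.56), with Kpna2, an importin, at 428, 360.4 and 304 CPM against 116, 118 and 131 CPM.

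Proteasome genes, among which the transgenes of the study belong, were higher on the division-high side by a small amount. Of 14 genes of the 20S core, 7 were higher on the division-high side and 0 lower, with a median of 0.44 (0.62 within Ctl MSC and 0.23 within MSC-TPr), and of 18 genes of the 19S cap 10 were higher and 0 lower, with 0.33 (0.55 within Ctl MSC and 0.15 within MSC-TPr). The median label difference of the same genes within sides was 0.064 and 0.20. Psma3 stood at 167, 229 and 177 CPM against 90.9, 95.9 and 131 CPM and Psma7 at 201, 214 and 166 CPM against 115, 127 and 126 CPM. The transduced gene Psmb10 (chr8:105935735-105938444) was at 27.8, 17.3 and 15.2 CPM against 8.81, 8.38 and 8.97 CPM and Psmb9 (chr17:34181987-34187764), which shares 212 exon bases with Tap1, at 3.38, 1.24 and 1.21 CPM against 0.801, 0.827 and 0.554 CPM. Both were higher on the division-high side, with the highest value in the library labelled Ctl MSC 1. Psmb11 (chr14:54621433-54629556) had 1 to 6 reads per library.

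Energy metabolism differed by enzyme. Of 20 glycolysis genes, 12 were higher and 1 lower, with a median of 0.58 (0.52 within Ctl MSC and 0.45 within MSC-TPr), among them Ldha (lactate dehydrogenase A) at 936, 1149 and 1209 CPM against 328, 363 and 609 CPM and Tpi1 at 551, 519 and 597 CPM against 217, 225 and 292 CPM. Genes of oxidative phosphorylation had 16 of 48 higher (33.3%, against 23% of all genes) and 0 lower, with a median of 0.21. Targets of hypoxia had no common direction, with 5 of 20 higher and 5 lower (25% each, against 23% and 21.7% of all genes). Ndrg1, a gene raised by low oxygen, was lower at 141, 228 and 159 CPM against 492, 508 and 547 CPM while Hif1a was higher at 337, 403 and 457 CPM against 159, 164 and 225 CPM. Of 57 cytosolic ribosomal protein genes, 17 were lower without overlap (29.8%, against 21.7% of all genes) and 1 higher, with a median of -0.27 (-0.23 within Ctl MSC and -0.19 within MSC-TPr), and the medians of the list per library overlapped between the sides. Rpl23 stood at 1116, 1204 and 1026 CPM against 1557, 1697 and 1666 CPM.

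Secreted factors were among the genes furthest apart. Of 17 chemokines and cytokines tested, 11 were higher (64.7%, against 23% of all genes) and 1 lower (5.88%, against 21.7%) without overlap. The median was 1.60 (1.92 within Ctl MSC and 1.27 within MSC-TPr), or 0.53 over the list without a filter on low counts. Angpt1 (chr15:42424723-42676977), a ligand of the endothelial receptor Tek, stood at 40.2, 42.2 and 64.5 CPM against 5.45, 4.58 and 3.38 CPM. Ccl2 (chr11:82035571-82037453), which attracts monocytes, was at 155, 44.7 and 33.6 CPM against 16.98, 17.2 and 2.93 CPM, lowest in MSC-TPr 1 and highest in Ctl MSC 1. Ccl9 stood at 20.8, 39.3 and 26.9 CPM against 2.40, 3.97 and 2.44 CPM and Il1rn, the interleukin 1 receptor antagonist, at 55.7, 27.1 and 31.6 CPM against 3.47, 4.85 and 5.04 CPM. Of the growth factors, Fgf7 was at 423, 256 and 276 CPM against 155, 165 and 60.7 CPM and Figf (VEGF-D) at 75.3, 27.3 and 37.9 CPM against 12.3, 13.6 and 3.49 CPM. The list of PDGF, FGF, VEGF and HGF genes had 8 of 26 higher (30.8%, against 23% of all genes) and 3 lower (11.5%, against 21.7%), with a median of 0.18. Mediators of immunosuppression had 7 of 16 higher (43.8%, against 23% of all genes) and 1 lower (6.25%, against 21.7%). Among them Lgals1 (galectin 1) stood at 2412, 2646 and 2058 CPM against 919.5, 995 and 1090.1 CPM and Ptgs1 (cyclooxygenase 1) at 55.4, 32.4 and 26.5 CPM against 23.7, 21.9 and 7.70 CPM.

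Genes of Wnt signalling were more often higher than lower on the division-high side. Lgr5 (chr10:115450311-115587780), a receptor of R-spondins, stood at 27.1, 25.8 and 65.8 CPM against 2.56, 3.03 and 3.82 CPM and its ligand Rspo2 at 287, 208 and 271 CPM against 30.5, 35.9 and 24.9 CPM. The secreted modulators Sfrp2 and Dkk3 were at 125, 69.8 and 102 CPM against 19.7, 19.9 and 6.98 CPM and 365, 135 and 209 CPM against 93.9, 92.2 and 49.00 CPM. The receptors Fzd4 and Lrp6 differed by -0.98 and -0.86 in log2 CPM. Over 25 members tested, 11 were higher (44%, against 23% of all genes) and 4 lower (16%, against 21.7%). The median was 0.71 (0.76 within Ctl MSC and 0.47 within MSC-TPr). This median was 0.29 without a filter on low counts and 0.38 without MSC-TPr 3. The TGF-β and BMP list had 10 of 27 higher (37%, against 23% of all genes) and 7 lower (25.9%, against 21.7%). In it Tgfbi, a TGF-β-induced matrix protein, stood at 243, 147 and 273 CPM against 37.2, 38.6 and 26.6 CPM and Tgfb2 at 40.4, 29.2 and 63.6 CPM against 20.1, 20.3 and 5.26 CPM.

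Among lineage genes, several of bone were higher on the division-high side. Runx2, the transcription factor that starts bone formation, stood at 41.5, 46.1 and 58.8 CPM against 40.5, 39.5 and 43.1 CPM, with overlap. Enpp1, which makes pyrophosphate, was at 77.8, 55.8 and 95.05 CPM against 6.84, 7.12 and 12.7 CPM, Tnfrsf11b (osteoprotegerin) at 179.99, 62.6 and 72.6 CPM against 19.5, 20.3 and 10.6 CPM and Spp1 (osteopontin) at 1324, 1709 and 1205 CPM against 435, 464 and 608 CPM. Of 24 osteogenic genes 14 were tested, 8 of them higher and 1 lower, with a median of 1.07 (0.66 within Ctl MSC and 1.29 within MSC-TPr, and 0.65 without MSC-TPr 1). Of 21 cartilage and tendon genes 13 were tested, 5 higher (38.5%, against 23% of all genes) and 1 lower (7.69%, against 21.7%). Their median was 1.12 (1.10 within Ctl MSC and 1.38 within MSC-TPr), which was 0.41 without a filter on low counts. Adipogenic genes had 3 of 18 in each direction (16.7%, against 23% higher and 21.7% lower of all genes). Klf15, a regulator of fat cell metabolism, was lower on the division-high side at 8.46, 15.1 and 10.3 CPM against 73.5, 75.6 and 47.7 CPM.

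Lysosomal genes were mostly lower on the division-high side. Of 40 tested, 25 were lower on the division-high side without overlap, against 21.7% of all genes, and 2 (Galns and Gusb) higher, with a median of -0.80 (-0.81 within Ctl MSC and -0.84 within MSC-TPr). Grn (chr11:102430315-102437048), the lysosomal protein progranulin, stood at 308, 270.04 and 270.5 CPM against 851, 881 and 1004 CPM. Mcoln1 (chr8:3500457-3515232), a calcium channel of the lysosomal membrane, was at 33.2, 40.5 and 39.2 CPM against 112, 108 and 123 CPM, a difference of -1.72 within Ctl MSC and -1.63 within MSC-TPr. Hexa and Idua, enzymes that break down glycolipids and glycosaminoglycans, stood at 134, 129 and 123 CPM against 353, 371 and 409 CPM and 9.06, 5.56 and 6.54 CPM against 26.7, 22.2 and 21.6 CPM, and exons of both overlap a neighbour on the other strand. Lamp1, whose promoter is shown here, stood at 986, 1192 and 1099 CPM against 1566, 1711 and 3099 CPM and Ctsd, the protease cathepsin D, at 295, 408 and 382 CPM against 564, 599 and 1011 CPM. The low libraries did not overlap the high ones for any of these 6 genes. The member that passed the test between the labels was Ctsc, with an adjusted p of 0.0179 in edgeR's quasi-likelihood test, and it overlapped between the sides.

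The proton pump that acidifies the lysosome went the same way. Of 16 V-ATPase genes, 10 were lower and 0 higher without overlap, with a median of -0.73 (-0.55 within Ctl MSC and -0.82 within MSC-TPr). Atp6v0b was at 111, 130.1 and 81.96 CPM against 214, 232 and 236 CPM and Atp6v1g1 at 184, 215 and 152 CPM against 324, 354 and 445 CPM, each with MSC-TPr 1 highest. Autophagy genes had 16 of 34 lower and 1 (Atg3) higher, with a median of -0.49 (-0.39 within Ctl MSC and -0.52 within MSC-TPr). Ulk1, the kinase that starts autophagy, stood at 44.5, 31.2 and 38.8 CPM against 99.2, 94.1 and 85.98 CPM, and Atg13, of the same complex, at 36.7, 43.7 and 54.6 CPM against 101, 101 and 110.3 CPM. Atg14, a subunit of the lipid kinase complex of early autophagosomes, stood at 15.3, 19.9 and 14.6 CPM against 33.9, 34.6 and 56.2 CPM, and Gabarapl1, which shares exon bases with a transcript of the other strand, at 194, 219 and 163 CPM against 329, 368 and 543 CPM. The gene of the lysosomal regulator Tfeb did not differ in this manner, at 4.89, 5.50 and 6.82 CPM against 4.33, 3.97 and 6.75 CPM.

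Lists of protein folding and stress genes differed from each other. The ERAD machinery, which removes misfolded proteins from the endoplasmic reticulum, had 15 of 34 genes lower (44.1%, against 21.7% of all genes) and 2 higher (5.88%, against 23%). Its median was -0.32 (-0.29 within Ctl MSC and -0.27 within MSC-TPr), led by Rnf185 at 53.8, 76.6 and 69.4 CPM against 142, 141 and 148 CPM. Cytosolic heat shock genes had 10 of 38 higher (26.3%, against 23% of all genes) and 4 lower (10.5%, against 21.7%), with a median of 0.16. Among them the small heat shock proteins Cryab, whose exons overlap Hspb2, and Hspb1 stood at 121, 86.96 and 70.3 CPM against 20.3, 23.8 and 29.1 CPM and 108, 73.3 and 82.2 CPM against 35.4, 39.5 and 39.9 CPM. Targets of the unfolded protein response and ATF4 had 9 of 31 lower (29%, against 21.7% of all genes) and 1 higher, with -0.35 (-0.59 within Ctl MSC and -0.073 within MSC-TPr), and MSC-TPr 2, on the high side, had the highest median of this list among the 6 libraries. Ddit3 (CHOP) stood at 218, 358 and 282 CPM against 694, 741 and 661 CPM and Trib3 at 81.3, 275 and 196 CPM against 328, 337 and 377 CPM, both lowest in Ctl MSC 1. The IGF and insulin list had 5 of 15 lower (33.3%, against 21.7% of all genes) and 2 higher (13.3%, against 23%). Its median of -0.51 was -0.12 without Ctl MSC 1, -0.33 without Ctl MSC 2, -0.29 without Ctl MSC 3 and -0.24 without MSC-TPr 3. Insr, the insulin receptor, and Irs2, its adaptor, stood at 40.4, 45.9 and 72.7 CPM against 127, 112 and 128 CPM and 12.7, 8.99 and 17.4 CPM against 34.9, 35.1 and 35.4 CPM, and Igfbp7 was higher at 321, 308 and 291 CPM against 111, 116 and 46.1 CPM. The ferritin genes Fth1 and Ftl1 were lower, at 2643, 2683 and 1877 CPM against 4074, 4353 and 4234 CPM and 3173, 3993 and 2984 CPM against 5427, 5951 and 6134 CPM. Among regulators of the cycle, Ccnd1 (cyclin D1, with 1100 exon bases shared with Oraov1 on the other strand) stood at 323, 369 and 393 CPM against 135, 125 and 142 CPM and Ccng2, a cyclin of arrested cells, at 27.9, 19.3 and 19.4 CPM against 49.6, 50.6 and 58.8 CPM.

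The genes furthest apart outside all lists are given next. A place outside the lists does not show that a gene is unrelated to cell division. Higher on the division-high side were S100a4 (chr3:90603771-90606045), a calcium-binding protein of motile cells, at 1044, 672 and 642 CPM against 76.00, 80.5 and 60.8 CPM, Ccdc80, a matrix protein, at 209.6, 139.9 and 234 CPM against 31.6, 32.5 and 17.2 CPM and Mgp, which inhibits calcification of the matrix, at 305, 149 and 191 CPM against 41.7, 46.2 and 34.05 CPM. Smoc2, a matricellular protein, and Aqp1, a water channel, stood at 189, 165 and 234 CPM against 50.7, 57.9 and 14.4 CPM and 316, 165 and 155 CPM against 41.6, 48.3 and 42.96 CPM. Diap3 (current symbol Diaph3), C330027C09Rik (current symbol Cip2a) and Srpx2 were 2.81, 2.68 and 2.64 higher. Ppef1 (chrX:160623094-160735765), a protein phosphatase, was lower at 14.1, 25.97 and 15.03 CPM against 212, 231 and 152 CPM, and Gpnmb (chr6:49036546-49070929), a glycoprotein of lysosome-related organelles, at 363, 159 and 124 CPM against 1637, 1691 and 1426 CPM. Creg1, a lysosomal glycoprotein, and Ptx3, a soluble pentraxin, were at 47.2, 39.1 and 31.3 CPM against 221, 231 and 122 CPM and 36.9, 70.04 and 50.00 CPM against 209, 214 and 207 CPM. Tenm4, Jhdm1d, Klhl24 and Car6 had split differences of -2.41, -2.42, -2.13 and -2.07.

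For collagens, cholesterol and lysosomal genes the median label difference within sides was 0.0011, -0.049 and 0.0067, against split medians of 2.02, 1.62 and -0.80. Interferon-stimulated genes were the reverse, with a label median of -2.22 and 3 of 47 higher between the sides, fewer than the 23% of all genes. Their split median was 0.69 (1.25 within Ctl MSC and 0.084 within MSC-TPr). The larger value within Ctl MSC rests on Ctl MSC 1 as its only high library. The split median ranged from 0.0021 to 0.70 under other processing and from 0.084 to 1.25 when each library was left out. Lists with medians near 0 and members in both directions were those of p53 targets (7 higher and 8 lower of 29), YAP and TAZ targets (5 and 7 of 22), NRF2 and antioxidant genes (7 and 6 of 33), BCL2 family and apoptosis genes (7 and 5 of 27), translation initiation (8 and 7 of 35) and MHC class I presentation (3 and 4 of 15). Over all genes 23% were higher and 21.7% lower. The median of the p53 targets was -0.35 within Ctl MSC and 0.24 within MSC-TPr, so that its value near 0 averages opposite shifts.

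**Figure D4:**
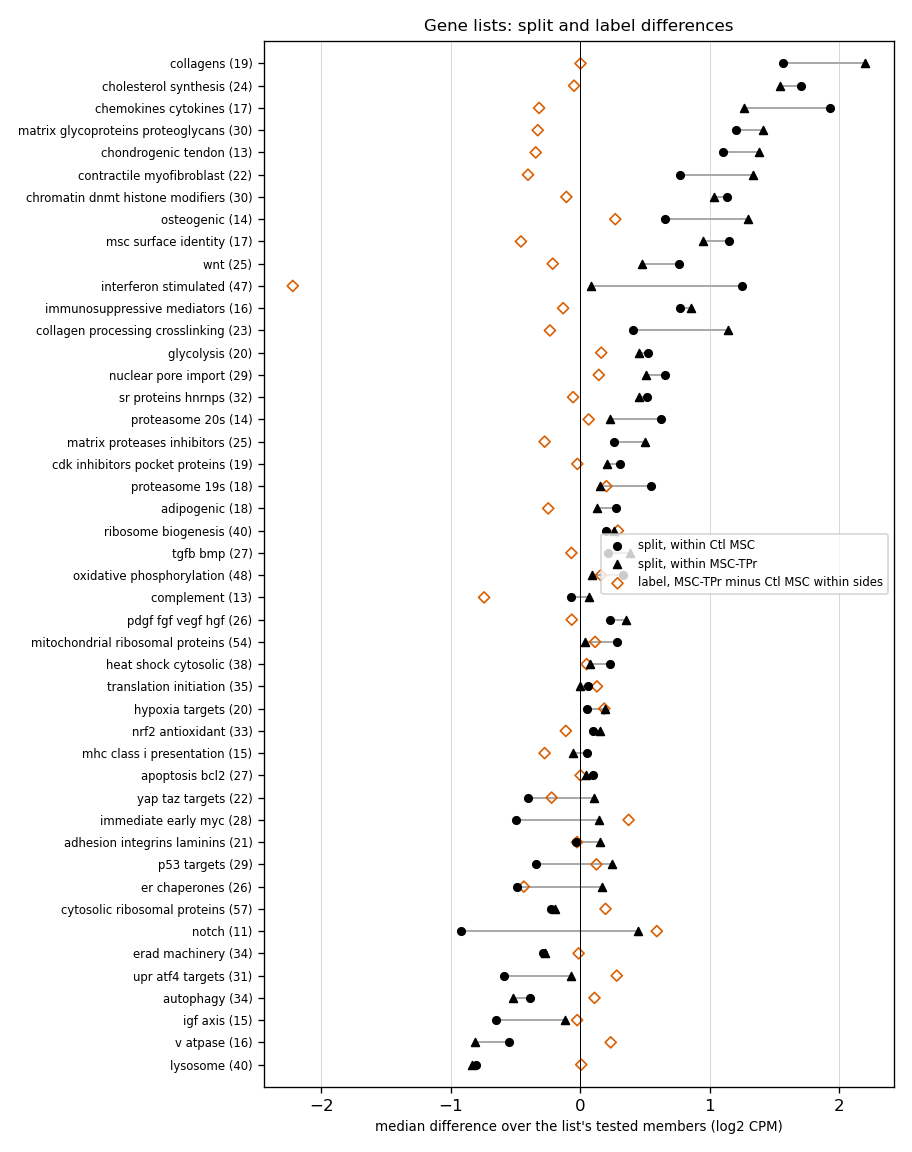
Median difference in log2 CPM over the tested members of 46 gene lists with at least 10 members tested (number in brackets), as division-high minus division-low within Ctl MSC (circles) and within MSC-TPr (triangles) and as MSC-TPr minus Ctl MSC within sides (open diamonds). Collagens and cholesterol genes lie to the right and lysosomal genes to the left with label medians near 0, and interferon-stimulated genes have the label median furthest from 0.

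The only test made was that between the library labels, with edgeR's quasi-likelihood method over the 6 libraries. At an adjusted p under 0.05 it called 3 genes higher (0.0251%) and 48 lower (0.401%) in MSC-TPr of 11974 (0.426% in all), and 1801 (15%) had an unadjusted p under 0.05. Of the 203 tested genes that the naming rule selected, 0 passed this test, with 8 at an unadjusted p under 0.05 and a lowest adjusted p of 0.0595 (DESeq2's Wald test called 4). Genes described outside that rule, such as Acta2, Lamp1 and Hmgcs1, are not among the 203. The rule favoured genes far apart between the sides, which cross the labels and so widen the spread within each label. Few calls among them therefore follow from their selection and are no result about these genes. Mki67, Top2a and Plk1 had label log2 fold changes of 0.99, 0.52 and 0.69. Their counts chose the sides, so that each label holds high and low values of them by the rule, and no p-value is given for them. With the side as a term beside the label, 635 genes were higher and 930 lower, a fit whose term was read from the same counts.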

How the data were processed

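The authors trimmed, aligned and counted the reads and deposited a table of counts per gene for the whole series, without normalization (the submitters' processing notes name CASAVA 1.8.2, Trimmomatic 0.35, TopHat2 2.1.0 and mm10, and the methods Htseq-count and DESeq2). The strand setting of the counting is not given in the sources used here, so exons shared with a gene on the other strand leave a count uncertain. Beside those marked in the text, this holds for Aspn, Eng, Fn1, Grn, Igfbp7, Irs2, Jhdm1d, Lamp1 and Tpi1, and Igtp and Scd2 share exon bases with a gene on the same strand. Summary rows were left out of library sizes. The members of the split and the gene lists were chosen with earlier results of these data known.

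Counts were analysed with edgeR 4.0.16 in R 4.3.3: TMM scaling, filterByExpr, log2 CPM with a prior count of 2 for the split, and for the labels its quasi-likelihood test, adjusted after Benjamini-Hochberg, on a design of label alone. Both steps were checked on simulated data in which 200 genes had a planted 4-fold change by side and 200 other genes by label. No gene carried both changes, so that the check does not cover the label test on genes that also differ between the sides. Named were the genes of the rule and the transgenes, up to 4 members per list with the largest split difference among those without overlap and with a mean log2 CPM of at least 3, up to 8 genes per direction outside the lists with at least 5, and genes that went opposite ways within the labels. Genes such as Acta2, Lamp1 and Runx2 were added as well-known members after their values were seen, and a few genes that the rule selects are not reported here. Symbols were matched to RefSeq and to GENCODE vM21 on GRCm38 (mm10) for coordinates. Alternatives were RLE size factors, DESeq2 1.42.0, other filters and prior counts, a correction for GC content and length, the replicate block and leaving out each library.

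The 13 motifs searched on both strands were the E-box CACGTG, its flanked form TCACGTGA and the longer CLEAR element, the sterol regulatory element in a loose form TCACNCCAC and a strict form, the box CCAAT and its flanked form GATTGGCT, the cell cycle element TTTGAA, the AP-1 element TGACTCA, the CArG box in a strict and a loose form, the E2F element TTTCGCGC and an interferon-stimulated response element. TCACGTGA and the CLEAR element contain CACGTG, and GATTGGCT contains CCAAT on the other strand. Beyond those reported, TTTCGCGC was found in 6 of 36 DNA replication members against 0.3% of all genes and 0.628% of those tested, and GATTGGCT in 9 of 37 cell division members against 4.18% and 6.61%. CCAAT was also found in 13 of 20 contractile members (65%). The CLEAR element was in 0 of 32 lysosomal members, against 0.27% of all genes. The strict sterol element was in 0 of 17 cholesterol members, against 0.0814%, and the loose form in 1, against 1.22%. The strict CArG box was in 0 of 20 contractile members, against 0.074%.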

Additional observations from a re-analysis of the deposited data

Results flagged for a closer look

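Some genes and lists went opposite ways within the 2 labels: every division-high library lay on one side of every division-low library of its label within Ctl MSC, and on the other side within MSC-TPr. The difference between the labels in this respect was not tested, and in each label 1 side rests on 1 library. Differences are division-high minus division-low in log2 CPM. Over all 11974 genes, 27 differed by at least 1 in opposite directions within the labels.

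Among the named genes, 9 were lower on the high side within Ctl MSC and higher within MSC-TPr. Egr1, an immediate early transcription factor, differed by -1.43 within Ctl MSC and 1.38 within MSC-TPr. Dusp6, a phosphatase that restrains ERK, differed by -0.99 within Ctl MSC and 1.10 within MSC-TPr. Spry4, an inhibitor of receptor tyrosine kinase signalling, differed by -1.67 within Ctl MSC and 1.02 within MSC-TPr. Ier3, an immediate early gene, differed by -0.81 within Ctl MSC and 0.97 within MSC-TPr. Hey2, a target of Notch, differed by -1.81 within Ctl MSC and 1.20 within MSC-TPr. Pgr, the progesterone receptor, differed by -1.13 within Ctl MSC and 1.17 within MSC-TPr. Lamb1, a laminin chain, differed by -1.19 within Ctl MSC and 0.83 within MSC-TPr. Of the MSC markers, Eng differed by -0.16 and 0.27 and Nt5e by -0.72 and 0.80, in the same order. Egr1 stood at 73.6, 146 and 137 CPM against 234, 168 and 54.4 CPM, in the order Ctl MSC 1, MSC-TPr 2 and MSC-TPr 3 against Ctl MSC 2, Ctl MSC 3 and MSC-TPr 1.

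The reverse was seen among the named genes for Dcn, the proteoglycan decorin (2.09 within Ctl MSC and -1.20 within MSC-TPr), and for Igtp, an interferon-induced GTPase (1.87 and -1.60).

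Among lists, the median differences within Ctl MSC and within MSC-TPr were -0.92 and 0.45 for Notch genes, -0.50 and 0.14 for immediate early and MYC genes, -0.49 and 0.17 for chaperones of the endoplasmic reticulum, -0.40 and 0.11 for YAP and TAZ targets, -0.074 and 0.067 for complement genes and 0.050 and -0.057 for MHC class I presentation.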

How the results depend on the processing

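Of 728 alternative values for the 52 list medians, 622 stayed within the spread taken as the same, 102 moved and 4 reversed. Without a filter on low counts the collagen median was 1.42, that of chemokines and cytokines 0.53, of cartilage and tendon genes 0.41 (0.49 with at least 10 counts in every library), of Wnt genes 0.29, of the IGF and insulin list -0.14, of haematopoietic markers 0.32, the endothelial median 0.159 and the epithelial, neural and muscle median -0.028, and with at least 10 counts in every library the endothelial and haematopoietic medians were 0.55 and -0.56. These 3 marker lists rest on 3 members each under the filter used. Counts of genes without overlap stayed within 1.5 times under each alternative. Leaving out each library in turn gave 900 to 1506 genes at least 2-fold higher and 427 to 1062 at least 2-fold lower. The highest counts came without Ctl MSC 1 (1506 and 832) or MSC-TPr 1 (1372 and 1062), where only 1 label is left to meet the condition. The medians ranged from 1.56 to 2.31 for collagens, 0.40 to 1.14 for collagen processing, 0.77 to 1.33 for contractile genes, -0.82 to -0.55 for the V-ATPase and -0.52 to -0.39 for autophagy. Without Ctl MSC 1 the medians of the 20S core, the 19S cap and the unfolded protein response list were 0.23, 0.15 and -0.073, and without MSC-TPr 1 those of the osteogenic and matrix protease lists were 0.65 and 0.26.

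The label test depended most on the processing. It called 693 genes with DESeq2 and 1565 with the side as a term, of which 4 and 31 were named genes, and 1 named gene without a filter. With the replicate block it called 0 (776 at an unadjusted p under 0.05). Same-numbered libraries lay on opposite sides of the split. Across genes, their differences from the mean of their label had correlations of -0.765, -0.594 and -0.604. Negative values follow from the split, so that they cannot show whether the numbers pair the samples. Without each library in turn it called 0 to 108 genes and 0 to 3 named genes: 108 without Ctl MSC 1, 44 without MSC-TPr 1, 1 without MSC-TPr 2 and 0 without each of the other libraries. With the side as a term the label differences of Mki67 and Top2a were -0.079 and -0.26. The causes of these changes were not tested. Depth limits genes near 3 reads, such as Psmb11 and Thy1.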
